A study of Mus musculus with 9 samples.

Results

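The genes described here are 9 coregulators of nuclear receptors: the PGC-1 family (Ppargc1a, Ppargc1b and Pprc1), the muscle regulator Perm1, the corepressors Nrip1 and Ncor1, and the steroid receptor coactivators Ncoa1, Ncoa2 and Ncoa3. They were chosen by gene symbol, and all 9 were found among the 26683 genes of the count table. The data are bulk RNA sequencing of Treg cells, the suppressive T cells of the immune system, which were sorted from spleen by CD4 and by Foxp3, their lineage-defining transcription factor, which a yellow fluorescent protein reports in these mice. The 4 knockout mice (KO) are labelled EsrrgNf/f.Foxp3YFP-Cre, so they carried a floxed Esrrg gene with Cre driven by Foxp3, and the 5 control mice (WT) are labelled B6N.Foxp3YFP-Cre, so they carried the same reporter and Cre without the floxed gene. All mice are labelled as females of 2 to 3 months, and each gave 1 library. Every bracketed library name in KO titles begins with Err and every one in WT titles with B6-N, so a difference of strain or colony, if these names mark any, cannot be told apart from genotype.

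Nuclear receptors that bind DNA change transcription by exchanging coregulators. Coactivators of the steroid receptor coactivator family dock on the receptor and bring in histone acetyltransferases and the arginine methyltransferase Carm1, whereas corepressors such as Ncor1 bring in histone deacetylases. Estrogen-related receptors, of which Esrrg encodes the gamma form, have no known physiological ligand and depend on PGC-1 coactivators to drive mitochondrial genes in muscle, heart and brown fat. The comparison therefore asks which of these partners are transcribed in Treg cells and whether their transcripts differ when Esrrg is floxed.

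Promoter windows for 6 of the 9 genes were found in RefSeq (build GRCm38.p6, 250 bases before to 50 after each annotated start), 8 windows in all; Ppargc1b, Ncoa2 and Ncoa3 had none. Both strands of each window were searched for the estrogen-related receptor element TNAAGGTCA, for its core AAGGTCA, which lies within that element, and for TGACG, the core of the cyclic AMP response element through which Ppargc1a is known to be induced in liver. The full element was in 0 of the 8 windows, against 1.28% of 32851 windows of the same length. The core AAGGTCA was in the Perm1 window alone (4.72% of all windows), and TGACG in the Ppargc1a window alone (20.8% of all windows). These 2 windows are shown because Perm1 is known in muscle as a target of PGC-1 and estrogen-related receptors and because Ppargc1a was the member that was almost unmeasured. They are printed 5′ to 3′ on the strand of the gene, with the matched letters in capitals as they read on that strand, where both matches are the reverse complement of the motif.
Perm1 (chr4:156215677-156215976, plus strand): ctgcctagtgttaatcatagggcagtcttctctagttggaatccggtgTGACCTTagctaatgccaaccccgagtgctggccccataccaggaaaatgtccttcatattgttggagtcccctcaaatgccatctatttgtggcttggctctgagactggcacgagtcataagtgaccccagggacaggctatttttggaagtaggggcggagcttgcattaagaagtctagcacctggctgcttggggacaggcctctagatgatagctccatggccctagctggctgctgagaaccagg
Ppargc1a (chr5:51567676-51567975, minus strand): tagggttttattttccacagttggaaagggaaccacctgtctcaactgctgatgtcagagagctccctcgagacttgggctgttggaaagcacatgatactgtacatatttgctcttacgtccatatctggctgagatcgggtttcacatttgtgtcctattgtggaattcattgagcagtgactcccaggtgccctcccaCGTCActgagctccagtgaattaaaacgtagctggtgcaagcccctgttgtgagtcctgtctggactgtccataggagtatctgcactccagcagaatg
The Perm1 match begins at position -202 and the Ppargc1a match at position -49 relative to the annotated start. A match of letters is a description of the window, and no binding was measured.

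Library totals ran from 15269014 to 17425634 counts, and 12738 genes entered the test. The gene that was floxed could not check the labels: Esrrg had 0 counts in each KO and each WT library, which allows up to 0.0464 CPM (counts per 1000000 counts of the library) over the KO libraries together and up to 0.0371 CPM over the WT libraries, from 3 counts. Floors and exact intervals here cover counting error only, unlike the intervals of fold changes, which also take in the spread between mice. The Treg label held for the markers, all 7 of which were detected, with a summed level of 4471 to 4852 CPM in KO and 4532 to 4776 CPM in WT. Libraries KO 1 and KO 4 stood apart, with 7 plasma cell markers at 1926 and 4452 CPM in sum, against 974 and 1270 CPM in KO 2 and KO 3 and 895 to 1083 CPM in WT. The 7 neutrophil markers summed to 42.7 CPM in KO 1 and 138 CPM in KO 4, against 1.84 to 7.15 CPM in KO 2 and KO 3 and 1.88 to 6.88 CPM in WT. The 7 macrophage markers summed to 19.2 to 112.8 CPM in KO and 17.4 to 60.4 CPM in WT, and B cell, CD8 T and NK cell, and erythroid markers to at most 34.3 CPM in KO and 23.9 CPM in WT; no marker of any list was at 0 throughout. KO 4 also held 27 counts of Xist, the RNA of the inactive X chromosome, against 27355 to 35693 in the other 8 libraries, which goes against its label as female. Fold changes of the members and medians of the lists are also given below without KO 1 and KO 4 where that moved them.

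Of the 8 members that entered the test, 0 passed a Benjamini-Hochberg adjusted p of 0.05 in edgeR's quasi-likelihood test, where 3.28% of all tested genes passed (1.4% higher and 1.88% lower in KO). The unadjusted p was under 0.05 for 1 member of 8 and for 21.6% of all tested genes. DESeq2 called 1 member and 6.94% of all genes, and limma-voom 0 members and 3.09% of all genes. The DESeq2 share of members is above its background but rests on 1 gene, Ncoa1. The other counts lie below theirs, and with this few members they say little. All 8 had a log2 fold change (KO over WT) below 0, as did 48.5% of all tested genes, but for Perm1, Nrip1 and Ncor1 the sign turned in fits that left out single libraries. The median over the 8 was -0.08, beside 0.0052 over all tested genes. Without KO 1 and KO 4, 5 of the 8 were below 0 and the median was -0.044, beside -0.0027 over all tested genes. The share of all tested genes below 0 is not given for that fit. The groups did not overlap for 1 of the 8, Ncoa1, where 9.1% of all tested genes did not overlap (5.16% lower and 3.94% higher in KO).

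**Figure D1:**
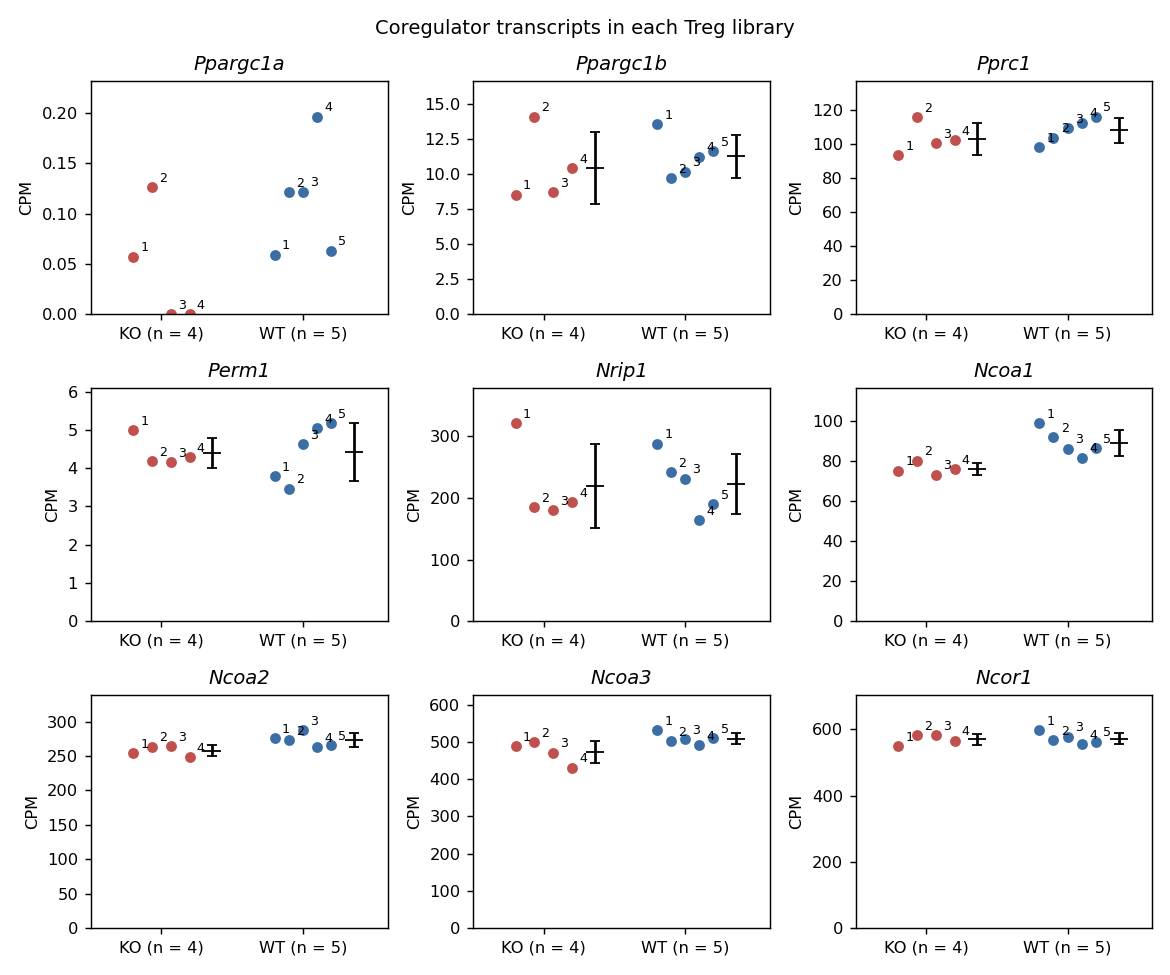
Level of each coregulator transcript in CPM (vertical axes, from 0), with 1 numbered point per library, KO left of WT. Black bars give the mean ± SD for all genes but Ppargc1a. Ncoa1 alone has all 4 KO points below all 5 WT points, and Nrip1 has its highest values in KO 1 and WT 1.

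The founding member of the PGC-1 family was close to absent. Ppargc1a, which encodes PGC-1 alpha, the inducible coactivator of mitochondrial biogenesis, had 1, 2, 0 and 0 counts in KO 1 to KO 4, against 1, 2, 2, 3 and 1 counts in WT 1 to WT 5. It was seen in 2 of 4 KO and 5 of 5 WT libraries and was too low to enter the test. Summed over libraries it stood at 0.0464 CPM in KO (exact Poisson 95% interval 0.00956 to 0.135) and 0.111 CPM in WT (0.0509 to 0.211). The ratio of the summed levels, KO over WT, was 0.417 with an exact interval of 0.0726 to 1.67, so neither a loss nor a gain was detectable at this depth. The gene lies on chromosome 5 (mm10, 51454250 to 51567726, minus strand).

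Its relatives were measured at very different levels. Ppargc1b, encoding PGC-1 beta, a coactivator of oxidative metabolism with more constant expression, had 8.55, 14.1, 8.71 and 10.4 CPM in KO, against 13.6, 9.71, 10.2, 11.3 and 11.7 CPM in WT (134 to 229 counts a library). KO 2 and WT 1 were the highest, and the groups overlapped. Its log2 fold change was -0.11 (95% interval -0.45 to 0.23, edgeR adjusted p = 0.721), and it turned to 0.030 without KO 1 and KO 4. Pprc1, the relative known in human cells to be induced by serum, was the main transcript of the family, with 93.6, 115.7, 100.4 and 102.4 CPM in KO, against 98.2, 103.7, 109.4, 112.6 and 116.1 CPM in WT. The groups overlapped over most of their range. Its log2 fold change was -0.07 (interval -0.21 to 0.07, adjusted p = 0.572), and it was 0.014 without KO 1 and KO 4. The labels do not say whether reads were counted by strand, and Pprc1 shares 177 exon bases with Ldb1 on the opposite strand.

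Perm1, which encodes a muscle regulator that acts downstream of PGC-1, was low but present, with 57 to 87 counts in every library. It had 4.99, 4.18, 4.16 and 4.28 CPM in KO, against 3.79, 3.46, 4.63, 5.04 and 5.17 CPM in WT, so the KO values lay within the WT range. Its log2 fold change was -0.0030 with a wide interval of -0.33 to 0.32 (edgeR adjusted p = 0.995). Without KO 1 and KO 4 it was -0.069 (edgeR adjusted p = 0.916).

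The p160 coactivators had small fold changes below 0, and 0 of the 3 passed in edgeR, with 1 of them, Ncoa1, at an unadjusted p under 0.05 and called by DESeq2. Ncoa1 (steroid receptor coactivator 1; chromosome 12, 4247362 to 4477182, minus strand) had 75.3, 80.3, 73.3 and 75.9 CPM in KO, against 98.97, 92.2, 86.3, 81.8 and 86.7 CPM in WT. Every KO library lay below every WT library, although KO 2 came within 2 CPM of WT 4. The mean was 76.2 ± 2.96 CPM (SD, n = 4) in KO and 89.2 ± 6.59 CPM (SD, n = 5) in WT. The log2 fold change was -0.23 ± 0.06 (SE; 95% interval -0.36 to -0.10), and the edgeR adjusted p of 0.0548 missed the threshold. Over 20 alternative settings the adjusted p of Ncoa1 ran from 0.0167 to 0.261 and its fold change stayed negative, and 6 of these settings called it, among them DESeq2 (0.0167), library totals without a scaling factor (0.0442) and the fit without KO 2 (0.0382). Without WT 1, the highest library, the fold change was -0.18 (adjusted p = 0.0664), and without KO 1 and KO 4 together -0.20 (adjusted p = 0.261). Ncoa1 shares 68 exon bases with the antisense gene 4921501I09Rik. Within 1 Mb of it, 17 other genes were tested and 1 was called, Dnajc27 at -0.225.

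**Figure D2:**
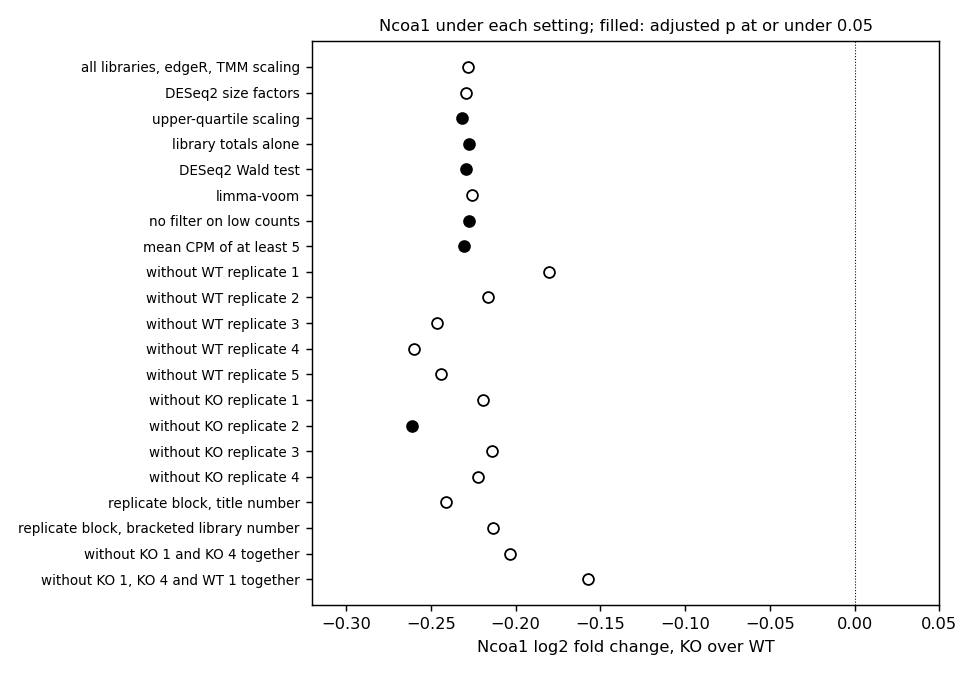
Log2 fold change of Ncoa1, KO over WT (horizontal axis), in each of 21 fits (rows); filled points had an adjusted p at or under 0.05. All values lie below 0, between -0.26 and -0.16, and 6 of the 20 alternatives call the gene.

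Ncoa2, also known as GRIP1 or TIF2, had 253.8, 263.6, 264.1 and 248.0 CPM in KO, against 275.9, 273.2, 287.4, 263.0 and 265.3 CPM in WT. KO 2 and KO 3 lay just above WT 4, and the other 2 KO libraries below all WT libraries. The log2 fold change was -0.08 (interval -0.17 to 0.0038, edgeR adjusted p = 0.248), and -0.036 without KO 1 and KO 4. Ncoa3, the member amplified in human breast cancer, had 489, 500.2, 472 and 431 CPM in KO, against 532, 502, 508, 491 and 510.1 CPM in WT. Only KO 2 reached the WT range, and KO 4 was the lowest of the 9 libraries. The log2 fold change was -0.10 (interval -0.21 to 0.0036, adjusted p = 0.244). It came to -0.059 without KO 4 and -0.053 without KO 1 and KO 4, and KO 4 is the library with the highest plasma cell and neutrophil marker sums, whose part in the result was not tested. Ncoa3 shares 154 exon bases with Sulf2 on the opposite strand. In bulk RNA, fewer cells that express a gene and less of its RNA per cell cannot be told apart.

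Of the corepressors, Ncor1 varied little and Nrip1 widely between libraries. Ncor1, the scaffold that joins nuclear receptors to histone deacetylase 3, was the steadiest of the tested members. It had 549, 583, 582 and 566 CPM in KO, against 597, 568, 578, 555 and 563 CPM in WT. The groups overlapped, and the log2 fold change was -0.0061 with the narrowest interval of the 8 (-0.09 to 0.08, edgeR adjusted p = 0.947), which leaves room for a change of -6.25% to 5.77%. Its SD over the 9 libraries was 0.051 on the log2 CPM scale, and 17.0% of the 500 tested genes nearest to it in level had a smaller one. Ncor1 shares 82 exon bases with Pigl and 1 with Ttc19, both on the opposite strand. Nrip1, which encodes RIP140, a corepressor of estrogen-related receptors and of oxidative genes in fat and muscle, was the least steady. It had 320.9, 185.0, 179.6 and 192.6 CPM in KO, against 288.0, 241.3, 230.9, 163.7 and 189.4 CPM in WT. KO 1 and WT 1 were high, WT 4 was low, and the KO libraries other than KO 1 lay within the WT range. Its SD was 0.33 on the log2 CPM scale, above that of 98.6% of the 500 genes nearest to it in level. The log2 fold change was -0.024 (interval -0.57 to 0.52, adjusted p = 0.964) with all libraries, -0.26 without KO 1 (adjusted p = 0.494) and 0.09 without WT 1 (adjusted p = 0.851). Without KO 1 and KO 4 together it was -0.28 (edgeR adjusted p = 0.675). The wide interval means that a change of -32.6% to 43.5% could not be told from none.

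**Figure D3:**
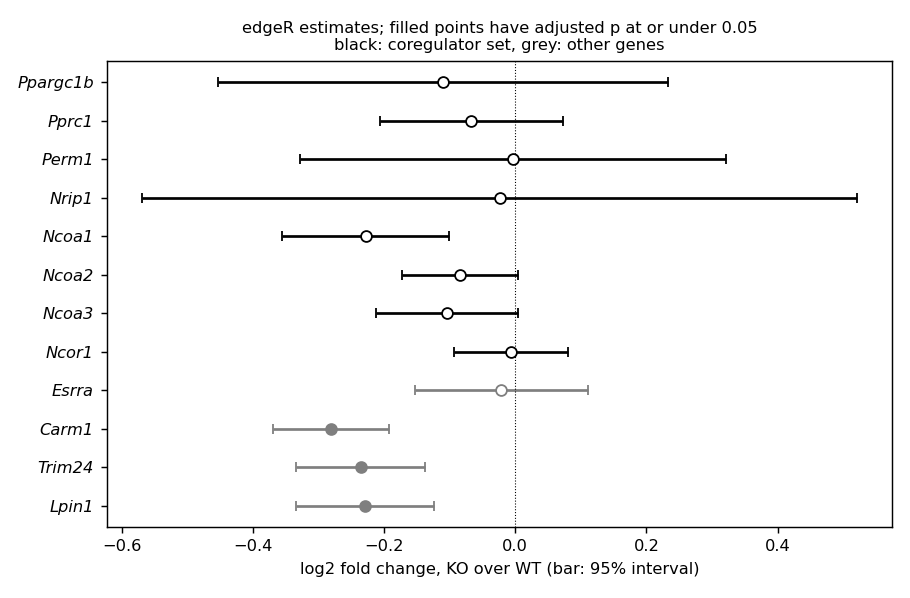
Log2 fold change, KO over WT, with 95% intervals from edgeR for the 8 tested coregulators (black) and for Esrra, Carm1, Trim24 and Lpin1 (grey). All black points are open (adjusted p above 0.05); Nrip1 has the widest interval (-0.57 to 0.52) and Ncor1 the narrowest.

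Levels were compared between genes per kilobase of annotated exon (GENCODE M21). On this scale Ncoa3 was the most abundant, with a mean over the 9 libraries of 62.4 CPM per kb, followed by Ncor1 at 44.6, Nrip1 at 19.3, Ncoa2 at 17.0, Pprc1 at 16.8, Ncoa1 at 9.73, Ppargc1b at 2.73 and Perm1 at 1.13 CPM per kb, with Ppargc1a last at 0.0126. Ncoa3 exceeded 94.6% of tested genes and Ncor1 91.9%, whereas Ppargc1b exceeded 28.8% and Perm1 16.9%. Nrip1, Ncoa2 and Pprc1 could not be ordered, since Nrip1 was above Ncoa2 in 5 of 9 libraries and Ncoa2 above Pprc1 in 5 of 9. Each other step of the order held in all 9 libraries on this scale. With the longest annotated transcript in place of all exons, Ncoa2 (32.6 CPM per kb) moved ahead of Nrip1 (28.1), and Ncor1 (63.2) came close to Ncoa3 (65.5) and was above it in 2 of 9 libraries, KO 3 and KO 4.

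**Figure D4:**
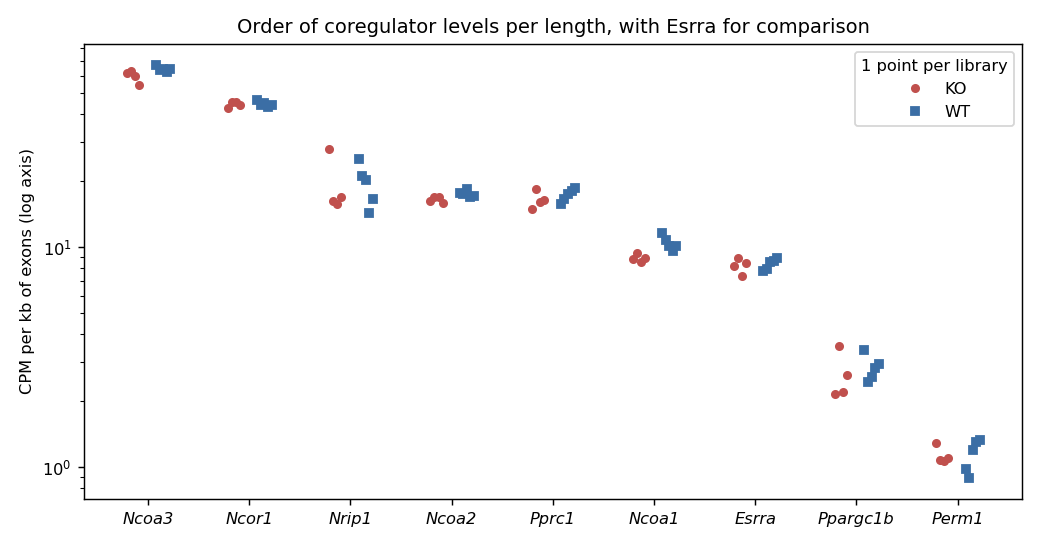
Level of each transcript in CPM per kb of exons on a log axis, 1 point per library, KO (circles) left of WT (squares). Ncoa3 and Ncor1 lie at the top, Nrip1, Ncoa2 and Pprc1 overlap, and Ppargc1b and Perm1 lie below Esrra; Ppargc1a, listed at 0 in KO 3 and KO 4, is not drawn.

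Esrra, the estrogen-related receptor whose transcript was measured, gave a yardstick for its possible partners. It stood at 8.22 ± 0.628 CPM per kb (SD, n = 4) in KO and 8.35 ± 0.475 CPM per kb (n = 5) in WT, with a log2 fold change of -0.021 (edgeR adjusted p = 0.875). Esrrb had 1 count in all KO libraries together and 1 in all WT libraries. Per kb, Ncoa3 was 6.50 to 8.07 times Esrra in KO and 7.21 to 8.69 times in WT, or by longest transcript 3.86 to 4.80 times in KO and 4.29 to 5.17 times in WT. Ncoa1 was 1.05 to 1.154 times Esrra in KO and 1.11 to 1.49 times in WT, but below it in all 9 libraries by longest transcript (0.697 to 0.988 times). Pprc1 was 1.82 to 2.16 times Esrra in KO and 2.02 to 2.08 times in WT. By longest transcript Pprc1 was 1.24 to 1.47 times Esrra in KO and 1.37 to 1.41 times in WT. Ppargc1b was 0.263 to 0.397 times Esrra in KO and 0.299 to 0.439 times in WT, or by longest transcript 0.163 to 0.246 times in KO and 0.185 to 0.272 times in WT. Ppargc1a was at most 0.00215 times in KO and 0.00345 times in WT. Among PGC-1 transcripts, then, Pprc1 and Ppargc1b were the ones measured beside Esrra in these cells, with no measure of protein.

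The balance within each family was described library by library. Pprc1 made up 83.8% to 88.0% of the summed PGC-1 level per kb in KO and 82.1% to 87.2% in WT, and Ppargc1b 12.02% to 16.1% in KO and 12.8% to 17.9% in WT. Ncoa3 made up 68.9% to 71.2% of the summed Ncoa1, Ncoa2 and Ncoa3 level in KO and 69.3% to 70.5% in WT. Ncoa1 made up 10.03% to 11.2% in KO and 10.8% to 11.95% in WT, with overlap between the groups. The ratio of Ncor1 to the 3 coactivators together was 0.493, 0.508, 0.533 and 0.556 in KO 1 to KO 4, against 0.483, 0.483, 0.486, 0.489 and 0.479 in WT 1 to WT 5. The KO libraries spread widely and all lay above the narrow WT range, also with the longest transcript as the length (0.572 to 0.639 in KO and 0.556 to 0.565 in WT). No test is given for this ratio, which rests on the same counts as the coactivators above. The ratio of Nrip1 to the 3 coactivators overlapped, at 0.180 to 0.322 in KO and 0.161 to 0.260 in WT.

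**Figure D5:**
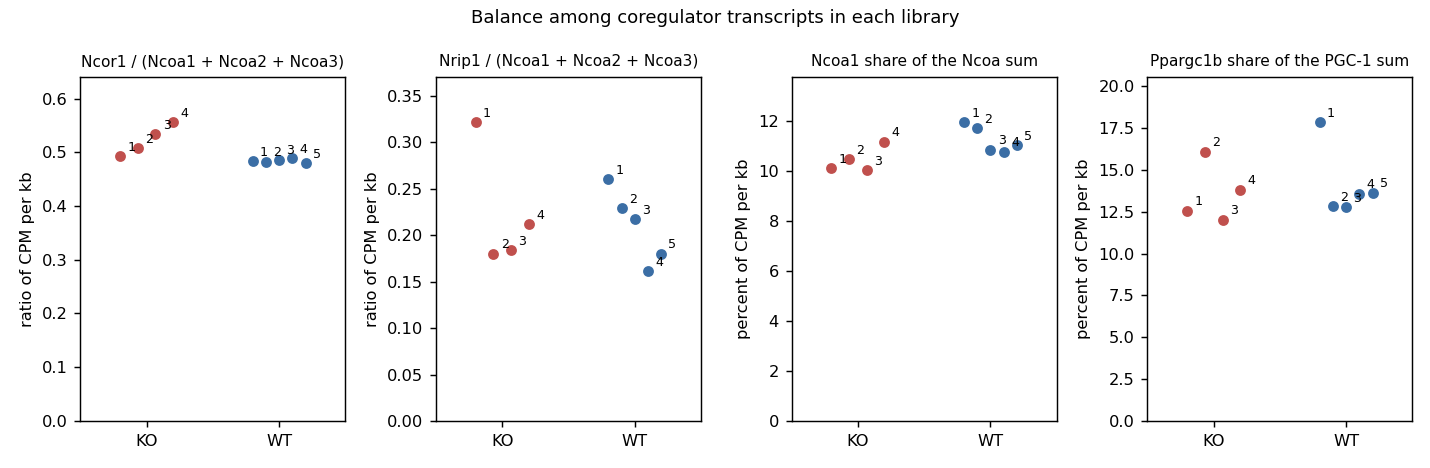
Ratios and shares of CPM per kb in each library (numbered points, KO left of WT, axes from 0). The ratio of Ncor1 to the summed coactivators is 0.493 to 0.556 in KO and 0.479 to 0.489 in WT; in the other 3 panels the groups overlap.

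Partners of these coregulators were measured as lists. Of 14 other coactivator complex genes, 0 rose and 1 fell, with a median log2 fold change of -0.04. That gene was Carm1, the arginine methyltransferase that p160 coactivators recruit, at 83.8, 79.1, 82.6 and 88.1 CPM in KO, against 94.7, 103.2, 107.4, 98.8 and 102.6 CPM in WT. All KO libraries lay below all WT libraries, and the log2 fold change was -0.28 ± 0.04 (SE, edgeR adjusted p = 0.00522). The Carm1 call held in each of the 9 fits that left out 1 library and in all but 1 of the 20 alternatives. Of 14 other corepressor complex genes, 0 rose and 1 fell in edgeR (median -0.08), the gene being Trim24, which encodes a coregulator of retinoic acid receptors. Trim24 had 79.9, 74.3, 74.9 and 79.8 CPM in KO, against 94.9, 85.9, 95.6, 85.8 and 92.4 CPM in WT, again with no overlap, and a log2 fold change of -0.24 (adjusted p = 0.0203), which was called in 5 of the 9 fits that left out 1 library. The call was lost without WT 3, WT 5, KO 3 or KO 4 (adjusted p up to 0.0666), with fold changes of -0.22 to -0.25, and without KO 1 and KO 4 together (-0.27, adjusted p = 0.0603), so the fold change kept its size. Each list's 1 edgeR call in 14 stands beside 3.28% called among all tested genes. DESeq2 called 1 of 14 coactivator and 3 of 14 corepressor genes, beside 6.94% of all genes. Fold changes were below 0 for 11 of 14 coactivator and 13 of 14 corepressor genes, beside 48.5% of all tested genes. Without KO 1 and KO 4 these counts were 7 and 10, with no share over all tested genes given. An unadjusted edgeR p under 0.05 was found for 3 coactivator and 5 corepressor genes, beside 21.6% of all tested genes. Groups did not overlap, lower in KO, for 1 of 14 coactivator genes and 4 of 14 corepressor genes, beside 5.16% of all tested genes.

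Upstream, 13 of 15 regulators of PGC-1 entered the test. The groups did not overlap for 2 of the 13, both lower in KO, beside 5.16% of all tested genes. Of the 13, 0 rose and 1 fell (median -0.07), beside 3.28% called among all tested genes. That gene was Lpin1, which encodes a phosphatidate phosphatase known in mouse liver as a partner of PGC-1 alpha. Lpin1 had 43.0, 45.1, 46.8 and 46.6 CPM in KO, against 49.3, 51.9, 53.96, 56.0 and 54.7 CPM in WT, so the groups did not overlap. Its log2 fold change was -0.23 (edgeR adjusted p = 0.0271), called in 4 of the 9 fits that left out 1 library. The call was lost without WT 3, WT 4, WT 5, KO 1 or KO 4 (adjusted p up to 0.0755), with fold changes of -0.20 to -0.24, and without KO 1 and KO 4 together (-0.20, adjusted p = 0.170), all near the -0.23 of all libraries. Downstream, 18 of 21 known target genes of PGC-1 and estrogen-related receptors entered the test, and 0 were called by edgeR, DESeq2 or limma-voom. An unadjusted p under 0.05 was found for 5 of the 18, beside 21.6% of all tested genes. Without KO 1 and KO 4 it was found for 1, with no share over all tested genes given for that fit. That smaller fit called 118 genes in all, against 418 with all libraries. The 18 target genes had a median log2 fold change of 0.07, with 13 of 18 above 0 (51.5% of all tested genes). Without KO 1 and KO 4 the median was 0.015, with 12 of 18 above 0, beside a median of -0.0027 over all tested genes. In 12 of the 18 genes KO 1 and KO 4 were both above KO 2 and KO 3, an order not counted over all tested genes. KO 1 and KO 4 were the libraries with raised plasma cell and neutrophil markers, and the part of those cells was not tested. Cs, which encodes citrate synthase, was among those with the smallest p, with a log2 fold change of 0.09 (edgeR adjusted p = 0.175). It had 256, 238, 241 and 254 CPM in KO, against 229.8, 243, 225, 233 and 229.7 CPM in WT. KO 2 and KO 3 lay within the WT range and KO 1 and KO 4 above it. Of the 18 targets, 1 had groups that did not overlap, with all KO libraries above all WT libraries, beside 3.94% of all tested genes.

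Genes whose pattern over the 9 libraries was most like a member's were found by the root mean square difference of z-scored log2 CPM, among 11313 genes. Nrip1 was nearest to Gfi1, a transcriptional repressor of lymphoid and myeloid cells (0.344 SD units), and Smad3, which carries transforming growth factor beta signals (0.380). Gfi1 had its highest value in KO 1, as Nrip1 did (96.4 CPM), and stood at 55.5 to 60.9 CPM in the other KO libraries and 54.9 to 81.8 CPM in WT. Ncoa1 was nearest to Tnfrsf12a (0.225), a receptor of the tumour necrosis factor family, and Prr12 (0.300), and Pprc1 to Gtf3c4 (0.209), a subunit of an RNA polymerase III factor, and Fam208b (0.269). With 9 libraries and this many genes, near matches are found for every tested member (0.163 to 0.346 for the nearest), so these are descriptions. Ncoa2 was nearest to Fam172a (0.163), Ncoa3 to Ppp4r2 (0.171), a regulatory subunit of protein phosphatase 4, Ncor1 to Numa1 (0.191), a mitotic spindle protein, Ppargc1b to Dhx33 (0.303) and Perm1 to Creld1 (0.346).

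Among genes within 1 Mb of the 8 tested members, 6 of 156 tested neighbours were called (3.85%), close to the 3.28% of all tested genes. Of these neighbours, 0 of 28 tested neighbours of Pprc1, 0 of 20 of Ppargc1b, 0 of 16 of Ncoa3 and 0 of 5 of Nrip1 were called. Ncor1 had 2 of 28 (Trpv2 at 0.148 and Ulk2 at -0.184 on the log2 scale), Perm1 2 of 39 (Agrn at -0.23 and Ccnl2 at -0.25) and Ncoa2 1 of 3 (Tram1 at 0.157).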

How the data were processed

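RNA came from sorted splenic Treg cells of 4 KO and 5 WT mice, and the kit (TruSeq Stranded, Illumina) is as per the labels' protocols. Raw counts for each gene symbol, in a single table, were deposited by the authors. STAR 2.7, DESeq2 and mm10 appear in the submitters' processing notes without roles; the counting step, its annotation and its use of strand were not given in the sources used here. Samples were grouped by title, and each column matched 1 sample. The members and gene lists were chosen with earlier results of these data known.

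The test was that of edgeR 4.0.16 under R 4.3.3 (quasi-likelihood, robust, trimmed-mean scaling, default expression filter), with Benjamini-Hochberg adjustment over all 12738 genes tested and a threshold of 0.05; the procedure was tested on simulated data. Standard errors came from the fold change and F statistic. Levels are CPM of the library total; log2 CPM used a prior count of 2. The p-values measure the spread between mice. The alternatives comprised DESeq2 1.42.0, limma-voom (limma 3.58.1), other scalings, other filters, replicate blocks, and fits without each library; leaving out KO 1 and KO 4 together, or with WT 1, was chosen after seeing the data. Called neighbours, Prkaa1 and the low genes of the closing section were named after their values were seen. Other named genes were members, estrogen-related receptors, called genes of a list or else its 2 smallest p, and 2 genes of most like pattern. The value of 1 gene that this rule selects is not reported here.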

Additional observations from a re-analysis of the deposited data

Results flagged for a closer look

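Within-group outliers were looked for in 18 sets of values (9 genes in KO and in WT), and chance alone marks about 1 in 20. Nrip1 stood at 320.9 CPM in KO 1, far from the other KO libraries (179.6 to 192.6 CPM), with a gap of 0.908 of the KO range against a critical value of 0.829. Perm1 stood at 4.99 CPM in KO 1, against 4.16 to 4.28 CPM in the other KO libraries, with a gap of 0.849 of the range. KO 1 is also 1 of the 2 libraries with raised plasma cell and neutrophil markers; whether these bear on either value was not tested.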

How the results depend on the processing

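The count of 0 members called became 1, Ncoa1 in each case, with upper-quartile scaling, with library totals alone, with DESeq2, with no filter on low counts and with genes of mean CPM 5 or more, and ran from 0 to 1 when single libraries were left out. The count of all genes called, 418, was 908 with DESeq2, 118 without KO 1 and KO 4, 250 without WT 1 as well, and 97 to 697 when single libraries were left out (182 and 103 on omitting KO 3 and KO 4; 697, 97, 134 and 117 on omitting WT 2 to WT 5, each in turn). Under a replicate block by title number 26 genes were called (24 of the 418), and with the bracketed library number 456 (273 of the 418); the title block ended the Carm1 (adjusted p = 0.0958), Trim24 (0.152) and Lpin1 (0.166) calls, and 0 members were called with either block. Same-numbered libraries did not deviate together, with correlations of -0.393 to 0.266 for title numbers and -0.204 to 0.189 for library numbers, so the numbers were not taken as pairs. Signs turned for members near 0. Perm1 was 0.017 with limma-voom and 0.062 with the title-number block, and -0.079 to 0.053 with single libraries left out; Nrip1 ran from -0.26 to 0.095, Ncor1 from -0.024 to 0.017 and Esrra from -0.069 to 0.021 in those fits. Without KO 1 and KO 4, Ppargc1b was 0.030, Pprc1 0.014 and Ncor1 0.038, and without WT 1 as well Ppargc1b was 0.11 and Ncor1 0.060. Taking the longest transcript as the length moved the mean ratio of Ncor1 to the 3 coactivators to 0.579, against 0.501 with all exons. It also moved the mean Ncoa3 share of the 3 coactivators to 59.8%, against 70.0%, and that of Ncoa2 to 29.8%, against 19.1%. Without KO 1 and KO 4 the list medians were -0.0030 for other coactivators, against -0.04 with all libraries, -0.063 for other corepressors and -0.041 for PGC-1 regulators. The median over all tested genes in that fit was -0.0027. Causes were not tested. Depth limits Ppargc1a, at 12 counts in all.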

Other observations

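Several genes through which PGC-1 alpha is known to act or be controlled in muscle and liver were at or near 0 in these libraries. Pdk4, the pyruvate dehydrogenase kinase induced on fasting, had 0 counts in KO and in WT, which allows up to 0.0206 CPM over all 9 libraries. Cpt1b, the muscle form of the mitochondrial fatty acid transporter, had 21 counts in KO and 24 in WT, or 0.325 CPM (exact Poisson 95% interval 0.201 to 0.496) in KO and 0.297 CPM (0.190 to 0.441) in WT. Prkaa2, a catalytic subunit of AMP-activated kinase, and Ppara, a fatty acid receptor, each had 1 count in KO and 2 in WT. Prkaa1, which encodes another catalytic subunit of that kinase, had 57.4 to 65.8 CPM in KO and 59.9 to 66.0 CPM in WT. Most genes of these lists were measured, with 13 of 15 regulators of PGC-1 and 18 of 21 target genes entering the test. Ctbp2, a corepressor gene, was the most uneven of the other corepressor genes, at 0.190 to 1.12 CPM in KO and 0 to 2.67 CPM in WT.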
